A study of Mus musculus with 6 samples.

Results

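LIF and its relatives in the interleukin 6 (IL6) family of cytokines were followed through 10 genes, from the secreted ligands to the inhibitor that closes the pathway. The 10 genes are the ligands *Lif*, *Il6* and *Il11*, the receptor genes *Lifr*, *Osmr*, *Il6ra*, *Il11ra1* and *Il6st*, the transcription factor *Stat3* and the inhibitor *Socs3*. They were chosen by name as members of the pathway, out of 20145 genes named on the array, with earlier results of these data known. The study names *Lif*, *Il6*, *Il6st*, *Osmr* and *Stat3* among the genes it found dysregulated on these arrays. Counts over the 10 genes are therefore descriptions and not a test. The array carries 13 probes for them on 23 spots, and all 10 genes passed the filter on low signal and were among the 14847 genes tested.

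The measurements are Agilent arrays read in 1 colour, with RNA from the whole uterus of 1 mouse on each of 6 arrays. Female mice were mated at 8 to 10 weeks of age, and their uteri were taken at gestation day (GD) 3.5, shortly before embryos attach, after the embryos had been flushed out. There were 3 Sox17f/f mice and 3 Sox17ed/ed mice, and both genotypes carry the floxed *Sox17* allele. Sox17ed/ed mice also carry an iCre recombinase driven from the *Ltf* locus, which removes *Sox17* from the uterine epithelium from puberty onwards and leaves it in other uterine cells such as endothelium. Littermates without the recombinase served as controls, so an effect of the recombinase alone was not measured.

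IL6 family cytokines share a signalling receptor chain, gp130, which *Il6st* encodes. Each ligand brings gp130 together with a chain of its own. LIF pairs it with LIFR, oncostatin M with OSMR, and IL6 and IL11 first bind IL6RA or IL11RA1. JAK kinases on these receptors then phosphorylate STAT3, which enters the nucleus and switches on genes such as *Socs3*, whose product shuts the receptors down. In the mouse uterus LIF is made mainly by the glands around the time of attachment and is needed for implantation, and it acts on the luminal epithelium through LIFR, gp130 and STAT3.

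The promoters of *Socs3* and *Il6* are shown because *Socs3* is the pathway's own target and *Il6* is a ligand that fell and whose promoter held the other motif. Among the 10 genes, the 300-base promoter window (250 bases before the start site and 50 after it, RefSeq, GRCm38.p6) held the core motif of STAT factors, TTCNNNGAA, which reads the same on both strands, in *Socs3* only. Of all 32851 such windows 8.30% hold it. The core motif of SOX factors, ACAAT on either strand, stood in the windows of *Il6* and of 1 of 2 start sites of *Lifr*, and 31.0% of all windows hold it. These matches are descriptions of letters and not of binding, and the 2 motifs do not overlap in these windows. The 250 bases before each start site are printed 5′ to 3′ on the gene's own strand, with the motif in capitals. In *Socs3* (chr11:117969367-117969616, minus strand) the capitals mark the STAT motif, and in *Il6* (chr5:30012864-30013113, plus strand) they mark the SOX motif read on the other strand.
Socs3: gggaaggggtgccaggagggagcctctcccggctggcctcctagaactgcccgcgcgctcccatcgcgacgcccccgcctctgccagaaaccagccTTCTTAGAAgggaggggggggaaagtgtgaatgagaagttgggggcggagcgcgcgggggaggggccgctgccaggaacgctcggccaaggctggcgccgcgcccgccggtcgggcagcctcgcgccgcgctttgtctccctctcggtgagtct
Il6: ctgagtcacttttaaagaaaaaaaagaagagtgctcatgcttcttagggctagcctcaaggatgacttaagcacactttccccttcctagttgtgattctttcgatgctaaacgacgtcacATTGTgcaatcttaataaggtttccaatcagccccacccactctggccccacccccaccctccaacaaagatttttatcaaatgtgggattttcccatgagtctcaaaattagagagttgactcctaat
The first capital lies at -154 from the start site in *Socs3* and at -129 in *Il6*.

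Signals of 6 of the 10 genes fell in Sox17ed/ed uteri and none passed the test in the other direction. The genes that fell were *Lif*, *Il6*, *Osmr*, *Il6st*, *Stat3* and *Socs3*, so they included ligands, receptor chains, the transcription factor and the inhibitor. A gene was called where limma gave an unadjusted p under 0.01 and the fold was at least 1.4. Of all genes tested, 12.5% were called, 6.47% as lower and 6.04% as higher. The median log2 fold change, Sox17ed/ed minus Sox17f/f, was -0.93 over the 10 genes and -0.00 over all genes tested. With *Lif* and *Il6* at the bounds given below it is -0.93 as well, since both bounds lie below the middle of the list. At an adjusted p under 0.05 with no threshold on the fold, 7 of the 10 genes were lower, against 18.9% of all genes in either direction. With limma, 0 of the 10 genes were higher at an unadjusted p under 0.05, although 2 had a positive log2 fold change.

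In 8 of the 10 genes the 3 Sox17f/f arrays lay wholly apart from the 3 Sox17ed/ed arrays, which was also true of 40.6% of all genes tested. *Lif* and *Il6* passed the filter only through the Sox17f/f arrays, so they could pass it only by differing. Of the other 8, which were well above background on all 6 arrays, 4 were lower and 4 were not called. An exact two-sided permutation test of 3 arrays against 3 cannot give a p below 0.1, and each gene whose arrays lay apart had that value.

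**Figure D1:**
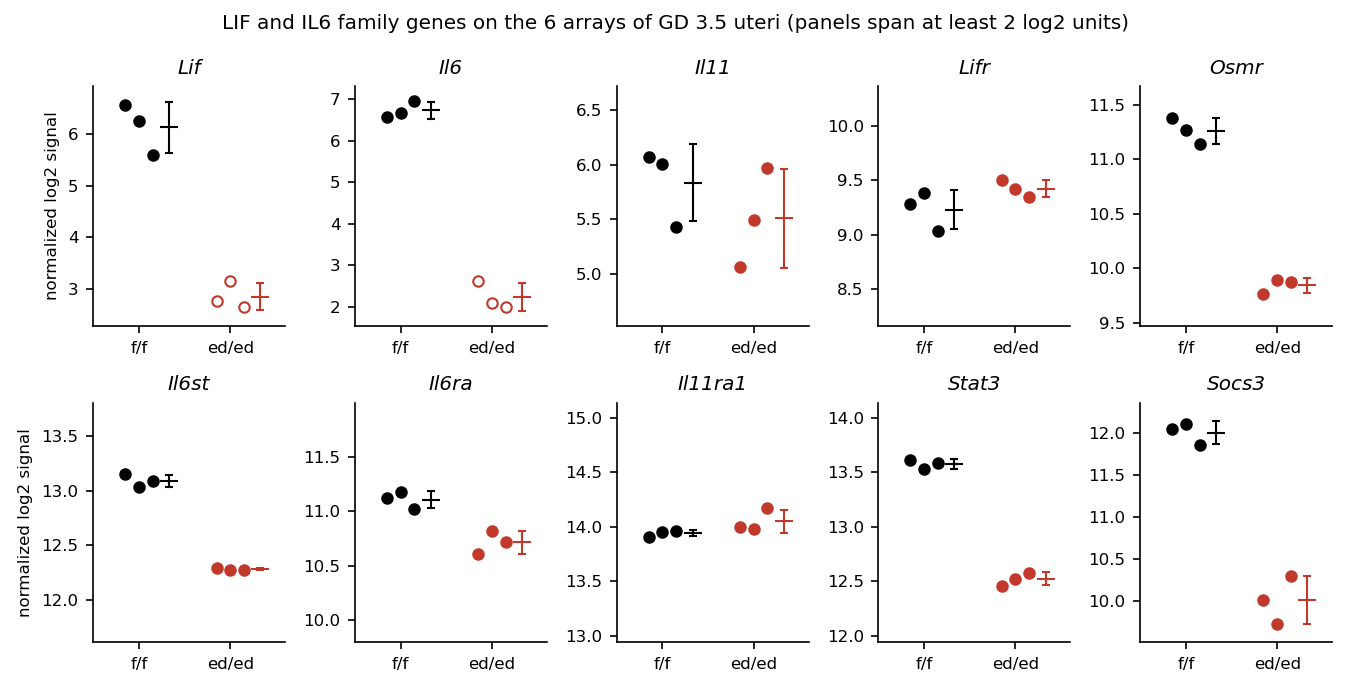
Normalized log2 signal (y axis) of each of the 10 LIF and IL6 family genes on the 3 Sox17f/f and the 3 Sox17ed/ed arrays, with a point for each array and a bar for the mean of each genotype. Open points mark genes that no array of that genotype measured well above background, which holds for *Lif* and *Il6* in Sox17ed/ed uteri, and the points of the 2 genotypes overlap for *Lifr* and *Il11*.

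*Lif*, the ligand on which implantation depends, had normalized log2 signals of 6.55, 6.25 and 5.58 in the Sox17f/f uteri. In the Sox17ed/ed uteri its signals were 2.76, 3.15 and 2.64, below the level at which the scanner software counts a spot as well above background. The groups lay far apart, and only the Sox17f/f side was a measured level. *Lif* was at least 3.75-fold lower in Sox17ed/ed uteri. This bound sets the Sox17f/f mean against the mean, over the Sox17ed/ed arrays, of the lowest signal that counted as well above background on each. The bound holds for the background-subtracted signal, and with normexp background correction the log2 fold change of *Lif* was smaller, -0.90. As a fitted value that depends on the background subtraction, its log2 fold change was -3.28 (means 6.13 ± 0.50 and 2.85 ± 0.26, SD, n = 3 each).

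*Il6*, a cytokine of the acute-phase response, had signals of 6.56, 6.65 and 6.96 in Sox17f/f uteri, as the mean of its 2 spots on each array. Its Sox17ed/ed signals were 2.63, 2.09 and 1.99. Here too no Sox17ed/ed array was well above background and the groups did not touch. *Il6* was at least 5.66-fold lower. Its fitted log2 fold change of -4.49 (adjusted p = 4.9e-05 with limma) depends on the background subtraction as that of *Lif* does. With normexp the log2 fold change of *Il6* was smaller than its bound, -1.31. The bounds of *Il6* and *Lif* hold for the background-subtracted signal and do not rank them against each other.

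*Il11*, a ligand known for its part in decidualization, behaved differently from these ligands in that its arrays overlapped. Its signals were 6.07, 6.01 and 5.43 in Sox17f/f uteri and 5.07, 5.49 and 5.97 in Sox17ed/ed uteri. The highest Sox17ed/ed array exceeded the lowest Sox17f/f array. Its log2 fold change of -0.33 had a 95% interval from -0.98 to 0.33 (adjusted p = 0.445), an interval wide enough to hold a fall past the fold threshold of 1.4 as well as no change. Whether the change of *Il11* differed from that of *Lif* or *Il6* was not tested.

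Among the receptor genes, the strongest fall was that of *Osmr*, the oncostatin M receptor chain. It measured 11.38, 11.26 and 11.14 in Sox17f/f uteri. In Sox17ed/ed uteri it measured 9.76, 9.89 and 9.87. The highest Sox17ed/ed array lay 1.25 log2 units below the lowest Sox17f/f array, while arrays of a genotype differed by little. *Osmr* fell 2.67-fold, with a log2 fold change of -1.42 (SE 0.08, 95% interval -1.62 to -1.21, adjusted p = 0.000171).

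*Il6st*, which encodes the gp130 chain that all these receptors share, read 13.15, 13.04 and 13.09 in Sox17f/f uteri and 12.29, 12.27 and 12.28 in Sox17ed/ed uteri. Its Sox17ed/ed arrays were nearly alike, with an SD of 0.01. The fall was 1.75-fold, the only call among the 10 genes under 2-fold, with a log2 fold change of -0.81 (SE 0.06, adjusted p = 0.000424).

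The ligand-binding chains of LIF, IL6 and IL11 were not called. *Lifr*, the chain through which LIF acts, read 9.28, 9.38 and 9.03 in Sox17f/f uteri and 9.50, 9.42 and 9.34 in Sox17ed/ed uteri. These groups overlapped by 0.04 log2 units. Its log2 fold change was 0.19, with a 95% interval from -0.07 to 0.45 (adjusted p = 0.268), an interval that ends below the fold threshold of 1.4, which is 0.49 on this scale. The other 2 *Lifr* probes changed by 0.13 and -0.13 on the log2 scale, and neither was called.

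*Il6ra*, the IL6-binding chain, read 11.12, 11.17 and 11.02 in Sox17f/f uteri and 10.61, 10.82 and 10.72 in Sox17ed/ed uteri. Its groups lay apart by 0.20 log2 units. The fall of 0.39 on the log2 scale (log2 fold change -0.39, 95% interval -0.59 to -0.19) passed the adjusted threshold (adjusted p = 0.023) but, at 1.31-fold, not the fold threshold.

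*Il11ra1*, the IL11-binding chain of decidualizing stroma, read 13.91, 13.95 and 13.96 in Sox17f/f uteri and 13.99, 13.98 and 14.17 in Sox17ed/ed uteri. The groups were separated by no more than 0.02 log2 units. Its log2 fold change was 0.11 (95% interval -0.07 to 0.29, adjusted p = 0.366). The mouse genome holds near-identical copies of this gene, and the probe may bind their transcripts too, so its value is uncertain.

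*Osmr* and *Lifr* are neighbours. In the RefSeq table both lie on chromosome 15, on opposite strands, with 0 protein-coding genes starting between their start sites. *Osmr* passed both thresholds as lower and *Lifr* neither, and the intervals of their log2 fold changes, -1.62 to -1.21 and -0.07 to 0.45, do not meet.

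*Stat3*, the transcription factor at which these receptors converge, was printed on 10 spots of each array for its main probe. Its mean signals were 13.61, 13.53 and 13.58 in Sox17f/f uteri and 12.46, 12.52 and 12.58 in Sox17ed/ed uteri. The groups lay apart by 0.95 log2 units, while spots within an array had SDs of 0.04 to 0.11. *Stat3* fell 2.08-fold, with a log2 fold change of -1.05 (SE 0.07, 95% interval -1.21 to -0.90, adjusted p = 0.000191). A second, dimmer probe matched to another *Stat3* transcript read 8.41, 8.46 and 8.56 in Sox17f/f uteri and 7.12, 7.42 and 7.14 in Sox17ed/ed uteri. It also fell, with a log2 fold change of -1.25 (SE 0.11, adjusted p = 0.00166 over all probes), and 9.86% of the 32734 probes tested were called.

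*Socs3*, the feedback inhibitor that STAT3 induces, read 12.05, 12.11 and 11.85 in Sox17f/f uteri and 10.01, 9.73 and 10.30 in Sox17ed/ed uteri. Its Sox17ed/ed arrays spread the most of the called genes measured on all 6 arrays, with an SD of 0.28, and still lay 1.55 log2 units below the Sox17f/f arrays. *Socs3* fell 3.97-fold, with a log2 fold change of -1.99 (SE 0.16, 95% interval -2.37 to -1.61, adjusted p = 0.000491). The arrays measure mRNA, so the phosphorylated form of STAT3 was not measured.

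**Figure D2:**
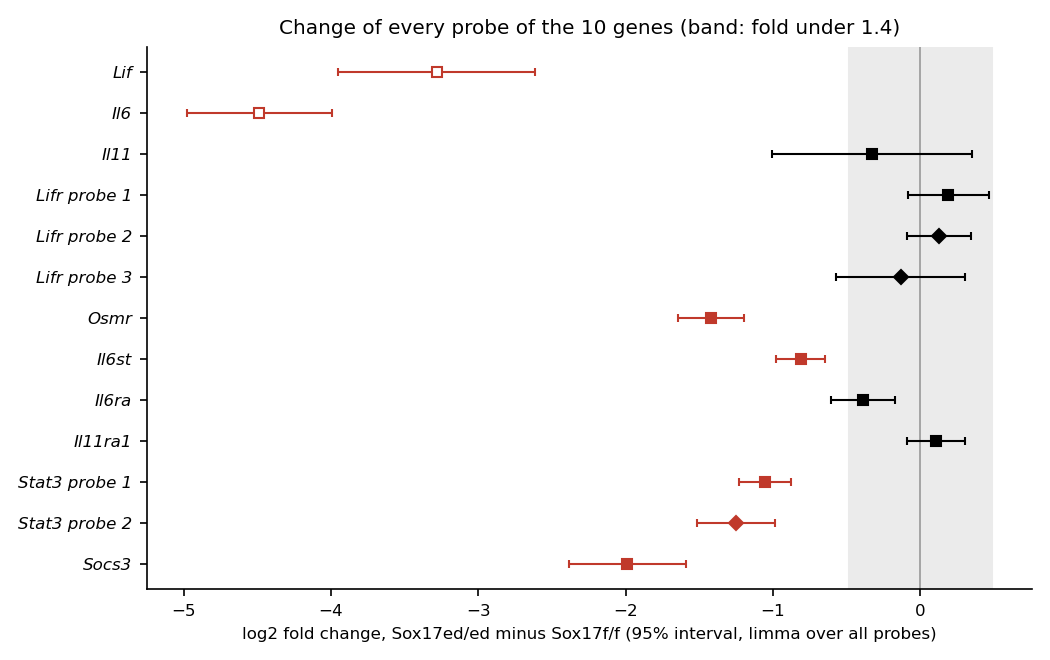
Log2 fold change, Sox17ed/ed minus Sox17f/f (x axis), of each of the 13 probes of the 10 genes, with 95% intervals from limma as bars. Squares are the probes used for the genes, diamonds the other probes of *Lifr* and *Stat3*, open symbols the probes of *Lif* and *Il6* that no Sox17ed/ed array measured well above background, red the probes past both thresholds, and the grey band folds under 1.4. Both *Stat3* probes lie left of the band, and the points of the 3 *Lifr* probes lie within it.

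The rest of the pathway was described with 7 lists of other ligands, receptors, kinases, STATs, inhibitors and target genes. Of their 69 genes 62 were tested, and 16 were lower (25.8%, against 6.47% of all genes), 3 higher (6.04% of all genes were) and 43 not called, with a median log2 fold change of -0.13. The calls fell mostly among the target genes. The lower calls include *Areg* and *Acod1*, which passed the filter only through the Sox17f/f arrays and so could pass it only by differing. These lists too were drawn up with earlier results known, so their shares are descriptions.

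No other ligand was called lower on all 6 arrays. Of 9 listed 6 were tested, 0 were lower and 2 were higher, with a median of 0.06. Without Sox17ed/ed replicate 2, 1 was called lower. Against 6.47% lower and 6.04% higher among all genes, a list of 6 genes cannot show a lack of falls. *Ebi3*, a subunit of IL27, rose from 8.12, 8.16 and 8.43 to 8.86, 9.20 and 8.99 (log2 fold change 0.78, adjusted p = 0.0085). *Cntf*, ciliary neurotrophic factor, rose by 0.57 on the log2 scale (adjusted p = 0.0211), a call lost without Sox17f/f replicate 3 (0.48) or without Sox17ed/ed replicate 1 (0.47), and its second probe was not called. The lowest value was that of *Clcf1*, another CNTF receptor ligand, with -0.44, which was not called. *Osm*, the ligand of *Osmr*, was well above background on only 1 Sox17f/f array and on no Sox17ed/ed array, so it was not tested.

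Of the other receptor genes 2 of 4 were tested, too few to read against the share of all genes. *Il31ra*, a receptor chain that pairs with OSMR, was called lower (log2 fold change -0.71, adjusted p = 0.0489), but leaving out any array other than Sox17ed/ed replicate 2 ended that call, with values from -0.78 to -0.52. *Il27ra*, which pairs with gp130, stood at -0.08, not called, with a sign that turned in some settings.

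Among the 4 JAK kinases only *Jak3*, better known from lymphoid cytokine receptors, was called. It fell from 8.89, 9.29 and 9.13 to 8.19, 8.54 and 8.28 (log2 fold change -0.77, adjusted p = 0.0124). *Jak1*, *Jak2* and *Tyk2*, the kinases that gp130 receptors use, had log2 fold changes of -0.28, -0.02 and 0.04, none called. Of these *Jak1* stood just under the adjusted threshold, at an adjusted p of 0.0499. With 12.5% of all genes called, a list of 4 genes is too short to read against that share.

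None of the 6 other STAT genes passed both thresholds, where the same rule called *Stat3*. With 12.5% of all genes called, a list of 6 genes cannot show a lack of calls. The list ran from *Stat2*, a factor of interferon signalling, at -0.46 (adjusted p = 0.0161) to *Stat5a*, at 0.44 (adjusted p = 0.00491). Both passed the adjusted threshold and stayed under the fold threshold of 1.4. *Stat2* was called lower without Sox17f/f replicate 1 (-0.53) or without Sox17ed/ed replicate 2 (-0.49).

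Of 16 other inhibitors and phosphatases 1 was lower, which is 6.25% and close to the 6.47% of all genes. Without Sox17f/f replicate 1 or without Sox17ed/ed replicate 1 the count was 2. The gene called on all arrays was *Socs2*, a relative of *Socs3* known for limiting growth hormone signalling, which fell from 9.88, 9.96 and 9.82 to 9.28, 9.20 and 9.28 (log2 fold change -0.63, SE 0.07, adjusted p = 0.00179). The highest value of the list was that of *Pias3*, a protein inhibitor of STAT3, with 0.49, which did not pass the test (adjusted p = 0.412). The median of the list was -0.12.

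Genes known to be induced by STAT3 in many tissues held 9 of the 16 lower calls, in the longest list. Of 22 listed 21 were tested, 9 were lower (42.9%, against 6.47% of all genes), 0 higher and 12 not called, with a median of -0.31. At a p under 0.05 with limma's adjustment 11 passed, among them *Ccnd1*, which stood at 0.41 (adjusted p = 0.0113), under the fold threshold of 1.4. Several genes of this list, *Fos*, *Junb* and *Icam1* among them, also answer to many other signals.

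*Lrg1*, a secreted glycoprotein of the acute phase, changed the most in this list. It read 13.75, 13.56 and 13.48 in Sox17f/f uteri and 10.05, 10.42 and 10.27 in Sox17ed/ed uteri, with groups more than 3 log2 units apart. Its log2 fold change was -3.35 (SE 0.12, adjusted p = 2.83e-05).

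The other members of that list that fell by at least 1 log2 unit were transcription factors and a protease inhibitor. Log2 fold changes were -2.09 for *Fos*, -1.20 for *Cebpd*, -1.03 for *Junb* and -1.56 for *Bcl3*, a partner of NF-kappaB. *Timp1*, an inhibitor of matrix metalloproteases, had a log2 fold change of -1.45. *Junb* was no longer called without Sox17ed/ed replicate 2 (-0.93) or without Sox17ed/ed replicate 3 (-0.96). *Cebpb*, a transcription factor of decidualization, was also lower (-0.996), as were *Pim3* (-0.93) and *Icam1* (-0.83). Other textbook STAT3 targets, such as *Myc* with 0.24, *Mcl1* with -0.11 and *Bcl2l1* with 0.26, were not called.

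Genes linked to LIF action in the uterus moved both ways. Of 8 listed 7 were tested, 4 were lower (57.1%, against 6.47% of all genes) and 1 was higher. *Areg*, the EGF family growth factor amphiregulin, read 7.69, 8.04 and 7.50 in Sox17f/f uteri and was not well above background on any Sox17ed/ed array, so it was at least 11.5-fold lower. The study also names *Areg* as a target of the progesterone receptor, so *Areg* is not a readout of LIF alone. *Acod1*, which makes itaconate, read 11.77, 12.02 and 11.60 in Sox17f/f uteri and was likewise not well above background in Sox17ed/ed uteri, at least 190-fold lower. The adjusted p of its fitted change with limma was 9.22e-06. *Areg* and *Acod1* passed the filter only through the Sox17f/f arrays, so they could pass it only by differing. Where every array had to be well above background, neither was tested and 2 genes of the list were lower. Both bounds hold for the background-subtracted signal, and with normexp the log2 fold changes were smaller, -2.25 for *Areg* and -5.44 for *Acod1*.

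*Coch*, the extracellular protein cochlin, had a log2 fold change of -1.29 (adjusted p = 0.0378), a call lost on leaving out any array but Sox17f/f replicate 2 or Sox17ed/ed replicate 2, with values from -1.26 to -1.06. *Egr1*, an immediate early transcription factor, fell by 0.83. In the other direction, *Ptgs2*, the inducible prostaglandin synthase, rose from 5.79, 5.70 and 5.59 to 6.86, 6.30 and 6.91 (log2 fold change 0.998, adjusted p = 0.0115). *Hbegf*, a growth factor of the attachment reaction, stood at 0.17 and was not called.

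**Figure D3:**
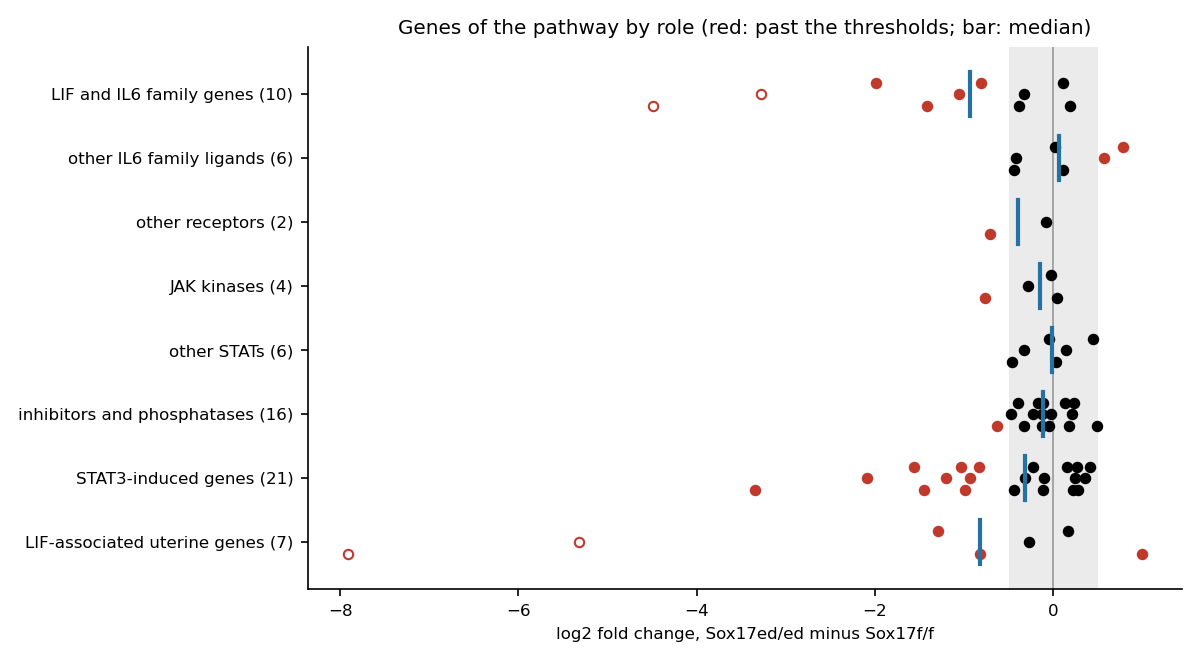
Log2 fold change, Sox17ed/ed minus Sox17f/f (x axis), of the 10 LIF and IL6 family genes and of the tested genes of the 7 pathway lists (rows), with a point for each gene, red where past both thresholds, open where no array of a genotype was well above background, and a blue bar for each list's median. The 10 genes and the LIF-associated and STAT3-induced lists reach furthest to the left, and the bars of the other ligands, JAK kinases, other STATs and inhibitors lie close to 0.

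Whole uterus holds many cell types, and markers of the glands moved with these genes. All 5 gland markers were lower in Sox17ed/ed uteri, against 6.47% of all genes. *Prss29* and *Ttr* were not well above background on any Sox17ed/ed array, so they passed the filter only through the Sox17f/f arrays. The study also names *Foxa2*, *Prss28* and *Prss29* among the genes dysregulated on these arrays. The summed normalized signal of the 5 markers was 11692 to 21346 in Sox17f/f uteri and 112 to 175 in Sox17ed/ed uteri. *Foxa2*, the transcription factor that defines gland cells, fell from 10.95, 10.35 and 10.45 to 5.80, 5.75 and 6.68. The part of the glands in the values of *Lif* and of the other genes was not tested. In whole tissue, these arrays cannot tell fewer cells of a type from less RNA per cell. The study counted glands in tissue sections. It reported fewer glands in a line that lacks *Sox17* in progesterone receptor-positive cells of all uterine compartments than in Sox17f/f or Sox17ed/ed uteri. For ablation after puberty, as in Sox17ed/ed mice, the study describes no reduction of glands in older mice but an altered gland function.

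Markers of other cell types showed no fall of the size seen in the gland markers. Of 6 epithelial markers 3 were higher, against 6.04% of all genes, and 0 lower. The rises were 2.10 for *Krt19*, 0.69 for *Krt8* and 0.59 for *Cdh1* on the log2 scale. The summed signal of the 6 markers was 34915 to 37264 in Sox17f/f and 43707 to 54148 in Sox17ed/ed uteri. The rise of this sum mostly rests on *Krt19*. *Epcam* (0.10), *Krt18* (-0.16) and *Cldn4* (-0.34) were not called, so the epithelial markers did not move together. None of the 6 stromal, 5 smooth muscle and 5 endothelial markers was called. With 12.5% of all genes called, lists of 5 or 6 genes cannot show a lack of calls. The summed signals of these 3 cell types were lower in Sox17ed/ed uteri, for stroma 166036 to 169390 against 135760 to 150655, for smooth muscle 405528 to 443907 against 302645 to 368579, and for endothelium 7384 to 7519 against 5823 to 6114. The stromal markers did not move together, since *Dcn*, on which the summed signal mostly rests, had a log2 fold change of -0.42 while *Pdgfra*, *Hand2*, *Hoxa10* and *Hoxa11* stood at 0.17 to 0.34, and the median of the list was 0.23. With limma at an unadjusted p under 0.05, 1 stromal marker was lower and 4 were higher, and 4 smooth muscle and 3 endothelial markers were lower. Of all genes tested 33.9% passed at that level.

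Leukocytes can also make IL6 family cytokines. Of 4 tested macrophage markers *Mrc1* was lower (-0.88), with a summed signal of 13151 to 14194 in Sox17f/f and 14530 to 15052 in Sox17ed/ed uteri. The rise of this sum rests on *Csf1r* (0.41), while *Adgre1* stood at -0.11 and *C1qa* at -0.16, none of them called. The 3 pan-leukocyte markers, with 4670 to 4740 against 4546 to 5163, and the 4 tested neutrophil markers, with 1003 to 1620 against 682 to 1118, had no call. *Krt5*, a marker of squamous epithelium, rose from a level not well above background on any Sox17f/f array, while *Trp63* and *Krt14* were not called, and the summed signal of these 3 was 2457 to 2978 against 2496 to 2758. Of 2 tested genes each, adipocyte and ovary markers had no call and *Cpa1* of the exocrine pancreas was lower (-1.23). Summed signals were 20.1 to 56.9 against 38.3 to 161 for adipocytes, 339 to 378 against 330 to 425 for ovary and 107 to 130 against 68.2 to 87.3 for pancreas. With 12.5% of all genes called, lists of 2 to 4 genes are too short to read against that share. The part of these cell types in the results was not tested.

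**Figure D4:**
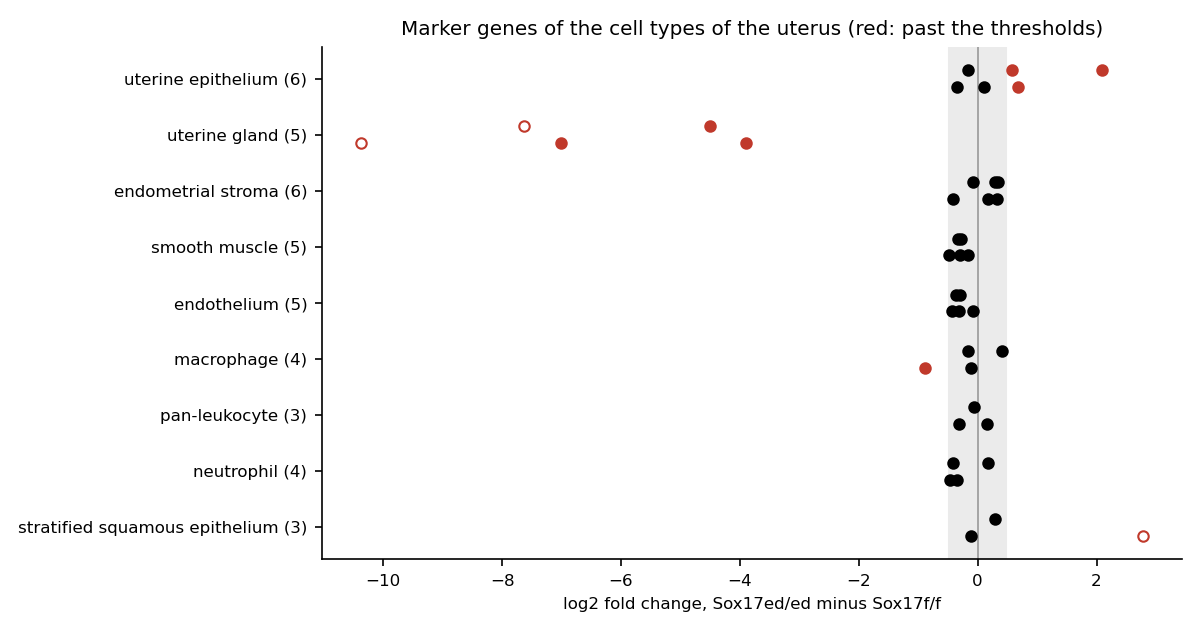
Log2 fold change, Sox17ed/ed minus Sox17f/f (x axis), of the tested marker genes of uterine cell types (rows), with a point for each gene. Points are red where past both thresholds and open where no array of a genotype was well above background. Adipocyte, ovary and pancreas markers are not shown. The 5 gland markers lie far to the left. The stromal, smooth muscle, endothelial and leukocyte markers lie closer to 0, and of these only the macrophage marker *Mrc1* (-0.88) is past both thresholds.

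*Sox17* itself was lower in Sox17ed/ed uteri, with signals of 12.21, 12.07 and 12.22 against 9.75, 9.59 and 9.81 (log2 fold change -2.45). *Pgr*, the progesterone receptor, was not called and read 0.01, with a 95% interval from -0.14 to 0.16. Between 56.8% and 65.7% of the 59305 spots other than controls were well above background on an array, and 0 were saturated. Arrays of the same genotype correlated at 0.990 to 0.995, those of different genotypes at 0.963 to 0.965. All 6 arrays lay on 1 slide and were scanned together, the Sox17f/f arrays in 1 line of the slide and the Sox17ed/ed arrays in the other, so genotype and position on the slide cannot be told apart.

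Genes with the most similar profile were sought by the root mean square difference over the 6 arrays, after setting each gene against its own Sox17f/f mean, among 14762 genes with a value on every array. For *Lif*, whose Sox17ed/ed signals were not measured levels, so that the order among its neighbours is uncertain, these were *Dmrta1* and *Sh3rf2*, both at 0.21, and *Lrg1* at 0.25 log2 units, and *Dmrta1* too was not well above background on any Sox17ed/ed array. For *Osmr* they were *Ccn1* at 0.06, *Timp1* at 0.06 and *Fam43a* at 0.09. For *Stat3* they were *Rnf125* at 0.04, *Cebpb* at 0.06 and *Ddx58* at 0.06. With 3 arrays against 3, this likeness is mostly likeness in the size of the difference between the genotypes, and nothing on shared function follows from it.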

How the data were processed

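RNA from whole uteri of 3 Sox17f/f and 3 Sox17ed/ed mice was measured on 6 Agilent arrays, and the labels assigned every array to a genotype. The authors deposited each array's scanner output from Feature Extraction 11.0.1.1 as the file headers name it (the labels give 9.1), and the intensity used here is its processed signal, background-subtracted and detrended within the array but not normalized between arrays. Flags deposited with it give background, saturation and outlier calls. A deposited table of processed intensities lay within 0.191% of the mean of those spots. Subtraction makes dim values uncertain on a log scale, so genes that no array of a genotype measured are given as bounds.

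From these files, control spots and 169 to 302 outlier spots per array were left out, log2 intensities were quantile normalized between arrays as in the study's methods, and a probe's spots were averaged. A probe was kept if 3 or more of the 6 arrays, of either genotype, showed it well above background. RefSeq accessions (GRCm38.p6 table, for names and promoter windows) matched 26582 of 55681 probes to 20145 genes. The probe with the highest mean stood for its gene. Genotypes were compared by lmFit and eBayes of limma 3.58.1 (R 4.3.3). P-values were adjusted over all genes by the Benjamini-Hochberg method, and calls used the study's thresholds, an unadjusted p under 0.01 and a fold of at least 1.4. Tallies and plots used Python 3.11.15 (matplotlib 3.10.9, numpy 2.4.6, pandas 2.3.3, scipy 1.17.1). The limma fit and the call rule were tested on simulated data, where 190 of 200 changed genes and 44 unchanged genes were called. The number of arrays limits the precision.

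The 10 genes and the pathway and marker lists were chosen with earlier results of these data known. Genes named were the 10, called list genes with a log2 change of at least 1, each list's highest and lowest, the 3 profiles closest to *Lif*, *Osmr* and *Stat3*, and *Sox17*, *Foxa2* and *Pgr*. Others, and the SOX motif, were chosen with their values seen. Alternatives were a 75th percentile shift, normexp, no filter, a stricter filter, the mean of a gene's probes, an intensity trend, the deposited table, the replicate number as a block, other thresholds and leaving out each array. Normexp used the median spot signal in place of the mean, a choice made after seeing the data.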

Additional observations from a re-analysis of the deposited data

How the results depend on the processing

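The 6 genes called lower (*Lif*, *Il6*, *Osmr*, *Il6st*, *Stat3*, *Socs3*) kept their direction and their call in each setting in which they were tested at the thresholds of the report, and so did the lack of a call of *Lifr*, *Il6ra*, *Il11* and *Il11ra1*. Counts over the 10 genes were 4 lower when every array had to be well above background, where *Lif* and *Il6* were not tested, 5 at a fold of 2, where *Il6st* was lost, and 7 at an adjusted p under 0.05, which adds *Il6ra*. Over all genes, the calls numbered 817 at a fold of 2 and 2808 at an adjusted p under 0.05, against 1857. Leaving out each array in turn gave 1662 to 2032 calls and 6 of the 10 genes each time. Normexp background correction reduced the log2 fold change of *Lif* to -0.90, that of *Il6* to -1.31, that of *Areg* to -2.25 and that of *Acod1* to -5.44, all smaller than the bounds of the report. The setting adds an offset of 50 to every signal, which shrinks the folds of dim genes.

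With the replicate number as a block the calls were 1796 genes and the same 6 of the 10. Deviations of same-numbered arrays correlated at 0.06, -0.11 and -0.00. These values show no pairing of the mice by number, and with 3 arrays of a genotype they cannot exclude one. The block ended the calls of *Il31ra* and *Coch*. *Il31ra* also lost its call with the 75th percentile shift (-0.67), with normexp (-0.38), with no filter and with the mean of its probes (-0.93). *Coch* lost its call with no filter too, *Cntf* with normexp (0.41) and with the mean of its probes (0.48), and *Stat2* gained a call with normexp (-0.55). The inhibitors and phosphatases held 2 lower calls with the 75th percentile shift and with normexp. Signs turned for *Il27ra*, which stood at 0.013 under normexp and at -0.33 to 0.050 on leaving out each array, being positive without Sox17f/f replicate 1 or 2. *Tyk2* ran from -0.016 to 0.095 on leaving out each array, and was negative without Sox17f/f replicate 1 or Sox17ed/ed replicate 3. Neither gene was called in any of these. The cause was not tested. For dim genes such as *Lif*, *Il6*, *Areg* and *Acod1*, the signal over background limits the fold to a bound.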
